A study of Mus musculus with 6 samples.

Results

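Chemokines and their receptors were examined in left ventricles from ISO-treated and saline-treated mice. The genes were taken from the deposited table by symbol (the Ccl, Cxcl, Cx3cl and Xcl ligands and the Ccr, Cxcr, Cx3cr, Xcr and Ackr receptors) and were kept where they were above 0 in at least 2 of the 6 libraries. Of 61 matching symbols among 21989 genes, 51 were kept, of which 32 encode ligands and 19 encode receptors. Ccl1, Ccr6 and Cxcr1 were above 0 in 1 library only, and Ccl21a, Ccl21b, Ccl21c, Ccl26, Ccr10, Ccr8 and Cxcl15 were listed at 0 in all 6.

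All animals were male C57BL/6 mice with no engineered allele named in the labels, and their age was not given. The ISO group received ISO under the skin at 10 mg/kg/d for 3 weeks, which the labels call a heart failure model, and the saline group (the sham group of the labels) received normal saline in the same volume. ISO commonly stands for isoproterenol, which stimulates beta-adrenergic receptors. Each group held 3 polyadenylated RNA libraries of frozen left ventricle, numbered as in the labels. The labels speak of biological repeats but name no single animal, so the spread that p-values rest on is that of these samples only and may be technical.

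Chemokines are small secreted proteins that guide white blood cells along concentration gradients. They are grouped by the spacing of their conserved cysteines into CC, CXC, CX3C and XC ligands. Their receptors span the membrane and signal through G proteins of the Gi class, whereas the atypical receptors (Ackr) bind ligands and remove or carry them without that signal. Many ligands of inflamed tissue are made by macrophages, fibroblasts and endothelium when NF-kappaB or interferon signalling is switched on, while others, such as Cxcl12, are made at rest.

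Levels are given as FPKM (fragments relative to gene length and to the library's mapped fragments), which allows levels of different genes to be set side by side. The libraries held 2776152 to 9862363 recovered reads. At the smallest total, which is that of saline 3, 0.360 FPKM is what 1 read adds for a gene 1 kilobase long. Saline 3 stood apart: its Pearson r with the rest, taken across genes, was 0.788 to 0.830, whereas every pair of the remaining 5 reached at least 0.918. Atrial Myl7 exceeded ventricular Myl2 (both myosin light chains) in 5 libraries of 6, and the summed airway and alveolar markers stood at 218 FPKM (saline 3) and 195 FPKM (ISO 3) against 1.54 to 13.4 FPKM in the other 4. The part of these differences in the results below was not tested. In bulk tissue, more cells of a type and more RNA per cell cannot be told apart.

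The data hold 2 kinds of pattern. A block of inflammatory ligands (Ccl2, Ccl3, Ccl4, Ccl5, Cxcl1, Cxcl2 and Cxcl10) was very high in ISO 2 and ISO 3 and near or below the saline level in ISO 1. A set of 9 members, among them Cxcl13, Ccl9, Cxcl9 and Cx3cl1, was higher in each of the 3 ISO libraries than in every saline library. That is 17.6% of the members, against 11% of all genes above 0 in at least 2 libraries. No member passed the test over all genes (limma on log2(FPKM + 1), Benjamini-Hochberg adjusted p under 0.05), and 0 of the 12269 genes tested did (0%). The smallest adjusted p was 0.699.

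**Figure D1:**
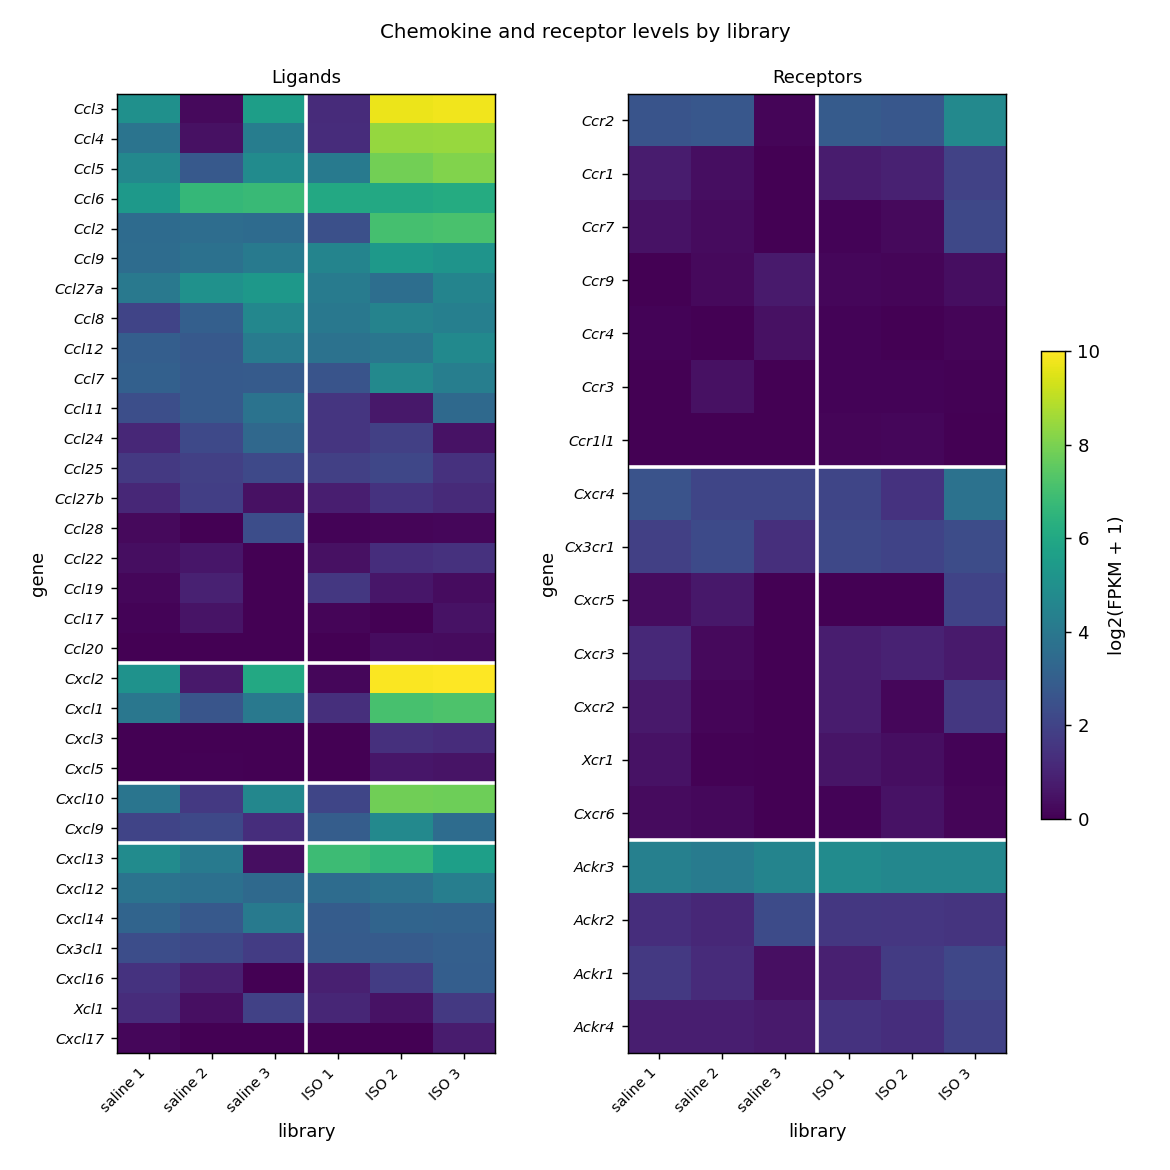
Level of 50 of the 51 genes in each library, as log2(FPKM + 1) on the colour scale, with ligands on the left and receptors on the right. White lines separate the role groups and the 2 treatment groups. Ccl3, Ccl4, Cxcl2 and Cxcl1 are brightest in ISO 2 and ISO 3 and darkest in saline 2 and ISO 1, while Ackr3 has a similar level in all 6 libraries.

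Of the 51 genes, 32 had a mean FPKM of at least 1 and entered that test, and 19 did not. All 51 were therefore also read from a fit without a filter on the mean, over the 16816 genes above 0 in at least 2 libraries. There, 40 of 51 were higher in ISO and 11 lower (78.4% higher, against 64.3% of all 16816 genes), with a median log2 fold change of 0.38 against 0.12. An unadjusted p under 0.05 was reached by 7 members, all higher (Ccl9, Cxcl9, Ackr4, Cxcl13, Cx3cl1, Cxcl3 and Ccl22), where 4.5% of all genes were higher and 1.49% lower at that level. Cxcl3, Ccl20 and Ccr1l1 were at 0 in every saline library and were kept through ISO libraries alone. They could therefore only come out higher, and they are included in these counts and in those by role. The groups did not overlap for 9 members, all higher in ISO, which is 17.6% of them against 11% of all genes; 0 members had every ISO library lower, against 4.08% of all genes.

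By role, 13 of 19 CC ligands were higher in ISO (median log2 fold change 0.49), as were 4 of 4 ELR ligands (median 1.28), 2 of 2 interferon-induced CXC ligands (2.19) and 5 of 7 other ligands (0.21). Among receptors, 5 of 8 CC receptors, 7 of 7 CXC, CX3C and XC receptors and 4 of 4 atypical receptors were higher. Only 2 CC, 2 CXC, CX3C and XC and 4 atypical receptors had the mean FPKM needed to enter the rescaled fits. There the sign of Ackr2 turned under median-of-ratios scaling and under quantile normalization, and that of Cxcr4 under the latter. The receptor medians were 0.34 for the CC group, 0.34 for the CXC, CX3C and XC group and 0.41 for the atypical group. These medians by role come from the fit without a filter, where the median over all genes was 0.12. Over the genes that entered the filtered fit it was 0.20, which median-of-ratios scaling moved to 0.021. The medians by role are to be read against such a shift over all genes. Of the 32 members in the filtered fit, 25 were higher with the values as deposited, 23 after that scaling (where 6343 of 12269 genes were higher) and 22 after quantile normalization.

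The highest library of a gene was ISO 3 for 22 of the 51 members (43.1%, against 28.6% of all genes). It was saline 3 for 12 members (23.5%, against 23.7%) and ISO 2 for 9 (17.6%, against 10.6%). For the receptors alone ISO 3 was highest in 10 of 19. Saline 3, the shallowest library, listed 17 of the 51 members at 0, against 1 to 6 in each of the others. Of all 16816 genes it listed 2645 at 0.

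Ccl3 and Ccl4, the macrophage inflammatory proteins 1 alpha and 1 beta, attract monocytes and T cells. Ccl3 (chromosome 11, 83647843 to 83649378 on GRCm38.p6, as are all positions here) had levels of 31.8, 0.201 and 47.9 FPKM in saline (libraries 1, 2 and 3 in turn, here and throughout) and of 1.37, 844 and 877 FPKM in ISO. Saline 2 rested on 1 read and ISO 1 on 8 reads, whereas ISO 2 and ISO 3 held 3437 and 3890 reads. Ccl4 (chromosome 11, 83648624 to 83664683) stood at 13.3, 0.359 and 17.9 FPKM in saline and at 1.38, 341 and 353 FPKM in ISO. In both genes ISO 1 lay between saline 2 and the other saline libraries, so the groups overlapped.

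The log2 fold changes were 3.28 for Ccl3 (SE 2.47) and 3.20 for Ccl4 (SE 2.01), each with an adjusted p = 0.699 (limma). Without ISO 1 they were 6.11 and 5.60, and neither passed. Without saline 2 the value of Ccl3 was 1.59. The annotated spans of these genes overlap each other, and no source used here gives the strand setting of the counting, so reads in the shared stretch cannot be told apart. The same holds for 18 of the 51 members, whose spans overlap another annotated gene. Ccl3 took 68.1% of the reads of the pair in saline 1 (95% exact binomial interval 63.1 to 72.9%), 70.5% in saline 3 (62.5 to 77.7%), 68.9% in ISO 2 (67.6 to 70.2%) and 69.0% in ISO 3 (67.7 to 70.2%). The 4 intervals overlap, although the summed reads behind them run from 149 to 5640. Saline 2 and ISO 1 held only 3 and 17 reads of the pair.

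Ccl5, which recruits T cells and monocytes, was at 24.2, 5.96 and 27.1 FPKM in saline and at 16.3, 233 and 272 FPKM in ISO. The log2 fold change of Ccl5 was 2.60 (SE 1.09, limma, adjusted p = 0.699). Ccl2, the main ligand of the monocyte receptor Ccr2, was at 10.2, 11.02 and 10.3 FPKM in saline (10.5 ± 0.453, SD, n = 3), the narrowest saline spread of the block. In ISO it was at 4.37, 131 and 139 FPKM, so ISO 1 lay below every saline library. The log2 fold change of Ccl2 was 2.01 (SE 1.18, limma, adjusted p = 0.699). Without ISO 1 it was 3.57 and Ccl2 passed (limma, adjusted p = 0.0372), as 1 of 16 genes called in that fit (0.13% of all tested). Over all alternatives its adjusted p ran from 0.0372 to 0.874 (limma). Ccl7, a close relative of Ccl2 that also acts on Ccr2, was also highest in ISO 2 and ISO 3 and lowest in ISO 1, at 7.47, 6.14 and 6.30 FPKM in saline and at 5.08, 25.4 and 18.2 FPKM in ISO.

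**Figure D2:**
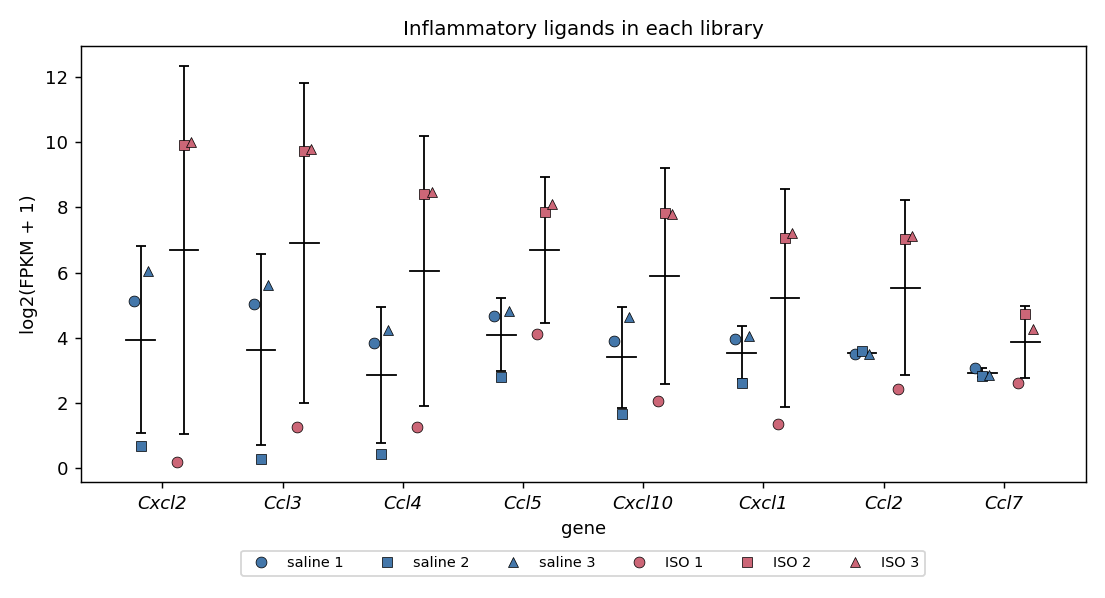
Levels of 8 inflammatory ligands in each library as log2(FPKM + 1). Each point is 1 library, horizontal lines are group means and vertical lines are SDs (n = 3 per group). In each gene shown ISO 2 and ISO 3 lie close together above all other libraries, and ISO 1 lies within or below the saline points.

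The ELR ligands, named for a glutamate-leucine-arginine motif before their cysteines, attract neutrophils through Cxcr2. Cxcl2 (chromosome 5, 90903899 to 90905938) had the widest range of all members. It was at 33.7, 0.586 and 64.9 FPKM in saline and at 0.125, 971 and 1019 FPKM in ISO. ISO 1 rested on 1 read (95% Poisson interval 0.00317 to 0.697 FPKM, counting error only) against 5422 and 6198 reads in ISO 2 and ISO 3, so the gap was far wider than the counting error. Its log2 fold change of 2.76 had an SE of 2.74 (limma, adjusted p = 0.717).

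Cxcl1 was at 14.7, 5.15 and 15.5 FPKM in saline and at 1.56, 133 and 148 FPKM in ISO, and its log2 fold change was 1.67 (SE 1.49, limma, adjusted p = 0.701). Cxcl3 was listed at 0 in the saline libraries and in ISO 1, and at 1.62 and 1.40 FPKM (17 and 16 reads) in ISO 2 and ISO 3. Cxcl5 held 1 read in saline 2, 9 in ISO 2 and 8 in ISO 3, and 0 elsewhere. The 4 ELR genes thus shared the libraries in which they were high at levels that differed widely. The share of Cxcl2 in the reads of Cxcl2 and Cxcl1 was not constant: 72.3% in saline 1 (95% exact binomial interval 68.1 to 76.2%), 82.6% in saline 3 (77.2 to 87.2%), 89.2% in ISO 2 (88.4 to 90.0%) and 88.6% in ISO 3 (87.9 to 89.4%). Saline 2 and ISO 1 held 35 and 12 reads of that pair.

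The 160 bases before the annotated start of Cxcl1, Cxcl2, Cxcl3 and Cxcl10 are shown because these genes were high together, that of Ccl3 because it was high with them, and those of Cxcl13 and Ccl9 because they were higher in every ISO library. They are printed 5′ to 3′ on the gene's strand, from RefSeq on GRCm38.p6, with each match to the NF-kappaB motif in capitals.
Cxcl1, chr5:90891085-90891244, plus strand: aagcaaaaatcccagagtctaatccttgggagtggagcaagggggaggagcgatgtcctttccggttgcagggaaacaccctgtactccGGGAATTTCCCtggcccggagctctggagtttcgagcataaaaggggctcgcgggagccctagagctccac
Cxcl2, chr5:90903739-90903898, plus strand: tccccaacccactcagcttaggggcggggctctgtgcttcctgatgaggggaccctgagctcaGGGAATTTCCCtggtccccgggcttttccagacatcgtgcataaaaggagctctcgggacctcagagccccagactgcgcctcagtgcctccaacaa
Cxcl3, chr5:90785941-90786100, plus strand: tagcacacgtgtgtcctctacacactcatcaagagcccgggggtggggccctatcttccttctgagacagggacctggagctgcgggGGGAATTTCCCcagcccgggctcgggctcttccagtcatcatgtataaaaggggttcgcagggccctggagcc
Cxcl10, chr5:92348890-92349049, minus strand: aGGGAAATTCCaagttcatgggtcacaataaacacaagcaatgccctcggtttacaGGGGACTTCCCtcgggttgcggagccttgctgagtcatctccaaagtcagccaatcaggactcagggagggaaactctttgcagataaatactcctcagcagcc
Ccl3, chr11:83649379-83649538, minus strand: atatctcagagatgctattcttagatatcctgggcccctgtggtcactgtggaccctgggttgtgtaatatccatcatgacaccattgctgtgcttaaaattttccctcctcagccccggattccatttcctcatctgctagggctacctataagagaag
Cxcl13, chr5:95956779-95956938, plus strand: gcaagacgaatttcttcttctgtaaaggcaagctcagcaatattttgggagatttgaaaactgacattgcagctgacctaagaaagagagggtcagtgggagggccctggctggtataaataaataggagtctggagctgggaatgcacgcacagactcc
Ccl9, chr11:83578637-83578796, minus strand: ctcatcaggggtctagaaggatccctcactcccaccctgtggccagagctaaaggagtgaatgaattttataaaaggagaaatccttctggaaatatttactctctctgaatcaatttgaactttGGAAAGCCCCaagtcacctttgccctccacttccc

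The NF-kappaB motif was searched on both strands in the 250 bases before each start. It lay in 9 of 45 windows of the members (20%), against 7.25% of 32851 windows of all genes. The genes with a match were Ackr2, Ccl9, Ccl20, Ccr1, Ccr3, Cxcl1, Cxcl2, Cxcl3 and Cxcl10. Of these, Cxcl1, Cxcl2 and Cxcl10 belong to the inflammatory block as listed above. Ccl2, Ccl4 and Ccl5 of that block had no promoter entry to search. Cxcl1, Cxcl2 and Cxcl3 hold the same overlapping pair of matches, which begins at positions -71, -97 and -73, counted from the start. Cxcl10 holds 3 matches, of which 2 overlap, and a match to the interferon-stimulated response element further up, at position -213. That motif lay in 3 of 45 member windows (6.67%, against 2.98% of all windows). The window of Ccl3 holds neither motif. Promoter entries were matched for 39 of the 51 members. Those not matched include Ccl2, Ccl4, Ccl5, Ccl7, Ccl11, Ccl24, Ccr7, Cxcl5, Cxcl16, Cxcl17 and Cxcr5. A match is a description of the letters and not of a bound site.

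Cxcl9 and Cxcl10 are interferon-induced ligands of Cxcr3, a receptor of activated T and NK cells. Cxcl10 (chromosome 5, 92346638 to 92348889) stood at 13.8, 2.16 and 23.9 FPKM in saline and at 3.20, 227 and 220 FPKM in ISO, so ISO 2 and ISO 3 were the highest libraries, as for the ELR ligands. Its log2 fold change was 2.50 (SE 1.59, limma, adjusted p = 0.699), and its span overlaps that of Art3. Cxcl9 (chromosome 5, 92321331 to 92328079) stood at 3.14, 3.55 and 1.49 FPKM in saline and at 6.67, 25.3 and 10.5 FPKM in ISO. Cxcl9 was higher in ISO 1 than in any saline library, which Cxcl10 was not. The log2 fold change of Cxcl9 was 1.88 (SE 0.49, limma, adjusted p = 0.699), between 1.38 and 2.27 when any 1 library was left out.

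The summed level of the 32 ligands was 294, 248 and 482 FPKM in the saline libraries and 320, 3221 and 3339 FPKM in the ISO libraries. Ccl3, Ccl4 and Cxcl2 made up 66.9% of it in ISO 2 and 67.4% in ISO 3, 26.8 and 27.1% in saline 1 and saline 3, and 0.462 and 0.899% in saline 2 and ISO 1. Without these 3 genes the sums were 215, 247 and 352 FPKM in saline and 317, 1065 and 1089 FPKM in ISO. The excess in ISO 2 and ISO 3 therefore reached beyond the 3 most abundant ligands.

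ISO 1 and ISO 2 had similar levels in most genes, with a median absolute difference of 0.17 on the log2(FPKM + 1) scale over the 12269 genes tested, against 0.31 between ISO 2 and ISO 3. In 51 of the 16816 genes of the unfiltered fit (0.303%), ISO 2 was at least 3 above ISO 1 on that scale, and 7 of these 51 are ligands of this set (Ccl2, Ccl3, Ccl4, Ccl5, Cxcl1, Cxcl2 and Cxcl10). The difference was 9.76 for Cxcl2, 8.48 for Ccl3 and 7.17 for Ccl4. In 46 of the 51 genes ISO 3 was within 1 of ISO 2. For Cxcl2, Ccl3 and Ccl4 the difference between ISO 3 and ISO 2 was 0.070, 0.055 and 0.050. None of the 8 receptors in the filtered fit differed by 3 or more between any pair of ISO libraries.

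**Figure D3:**
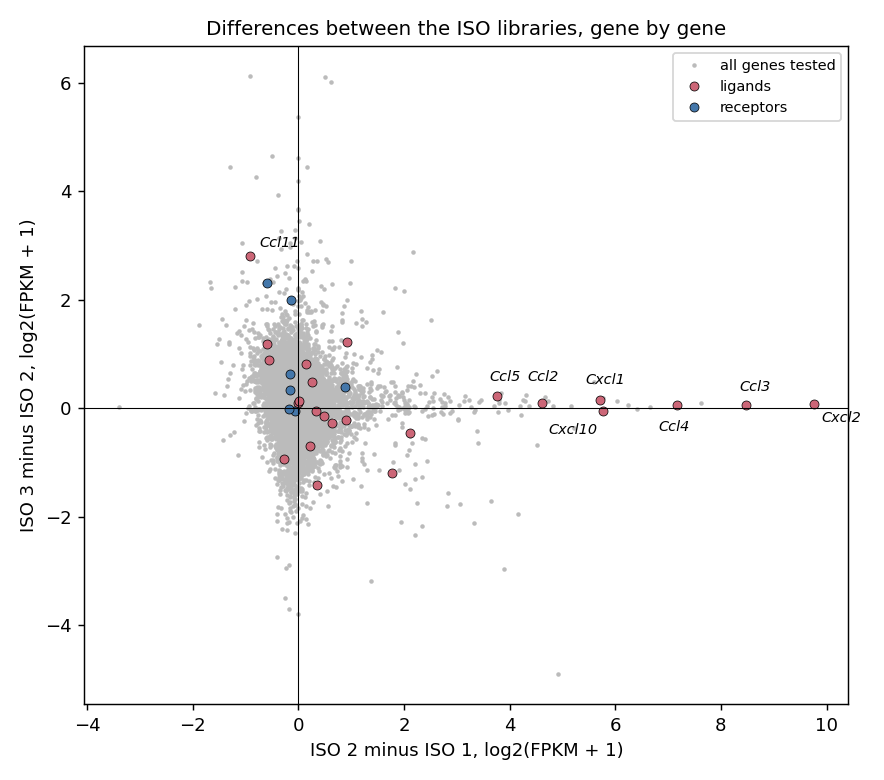
Difference between ISO 2 and ISO 1 (horizontal) and between ISO 3 and ISO 2 (vertical) on the log2(FPKM + 1) scale, for 12268 of the 12269 genes tested (grey), ligands (red) and receptors (blue). Cxcl2, Ccl3, Ccl4, Cxcl10, Cxcl1, Ccl2 and Ccl5 lie far to the right along the line of no difference between ISO 3 and ISO 2, at 3.76 to 9.76 on the horizontal axis.

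Some genes that induce these ligands were also highest in ISO 2 and ISO 3, of which Il1b, Tnf and Il6 were chosen after their values were seen. Il1b was at 7.62, 0.779 and 7.48 FPKM in saline and at 1.28, 123 and 140 FPKM in ISO. Tnf was listed at 0 in saline 2 and ISO 1, at 0.383 and 0.327 FPKM in saline 1 and saline 3, and at 21.8 and 13.1 FPKM in ISO 2 and ISO 3. Il6 was at 0.713 FPKM in ISO 1 and at 42.3 and 48.7 FPKM in ISO 2 and ISO 3, against 2.08 to 3.79 FPKM in saline. Of 13 genes tested in the list of inducers 12 were higher in ISO (median log2 fold change 0.87), and 0 passed. Of all genes tested, 68.1% were higher. The list also holds the NF-kappaB inhibitors Nfkbia, the gene that was lower, and Tnfaip3, which was higher. Of 11 chemokine genes outside the symbol rule that were tested, 8 were higher in ISO, 3 were lower and 0 passed. Ccrl2, a chemerin-binding receptor picked from that list, was at 8.39, 4.51 and 9.93 FPKM in saline and at 4.52, 101 and 92.7 FPKM in ISO.

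Macrophage and monocyte markers moved with the ligands in part. Their summed level was 435, 606 and 756 FPKM in saline and 942, 1827 and 1684 FPKM in ISO, 11 of 12 were higher in ISO and 0 of 12 was at 0 in any library. ISO 1 lay above all saline libraries in this sum although its Ccl3, Cxcl2 and Ccl2 did not. The part of the macrophage markers in the ligand levels was not tested.

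The second pattern, of members that were higher in all 3 ISO libraries, includes Cxcl13, Ccl9, Cxcl9, Cx3cl1, Ackr3, Ackr4, Ccr1 and Ccr2. Markers of several cell types separated the groups as well. Of 6 erythroid markers 6 were higher in ISO without overlap, against 12.8% of all genes tested. Their summed level was 3233 to 6684 FPKM in saline and 14036 to 29512 FPKM in ISO, with 1 marker at 0 in saline 3. The same separation held for 8 of 12 macrophage and 4 of 6 fibroblast markers. It held for 0 of 6 endothelial, 0 of 6 B cell and 0 of 5 mesothelial markers tested. Of 6 heart muscle markers (Myl2, Myh6, Tnnt2, Tnni3, Actc1 and Ryr2) 6 were lower. For 3 of them, Myh6, Tnnt2 and Tnni3, the groups did not overlap (against 3.72% of all genes tested), whereas those of ventricular Myl2 did. Of 5 atrial markers 4 were higher with the values as deposited, 1 after median-of-ratios scaling and 5 after quantile normalization. As deposited, 0 of the 5 separated the groups without overlap. The part of these markers in the second pattern was not tested.

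Cxcl13, which draws B cells through Cxcr5 (chromosome 5, 95956939 to 95961068), stood at 27.1, 15.96 and 0.310 FPKM in saline and at 113, 94.2 and 48.9 FPKM in ISO. Among the ISO libraries its order was the reverse of that of Ccl3, with ISO 1 highest. The saline 3 value rested on 1 read (95% Poisson interval 0.00785 to 1.73 FPKM). The log2 fold change of Cxcl13 was 3.26 (SE 1.07, limma, adjusted p = 0.699) and 1.90 without saline 3.

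Ccl9, a ligand of Ccr1 made by myeloid cells (chromosome 11, 83572917 to 83578636), had the smallest unadjusted p of the members (0.00423, limma, adjusted p = 0.699). It was at 10.6, 12.2 and 15.8 FPKM in saline (12.9 ± 2.68, SD, n = 3) and at 21.7, 41.3 and 35.4 FPKM in ISO (32.8 ± 10.0, SD, n = 3). Its log2 fold change of 1.26 (SE 0.30) stayed between 1.07 and 1.52 when any 1 library was left out. Cx3cl1, a membrane-tethered ligand of endothelium that binds Cx3cr1, was at 4.13, 3.53 and 2.41 FPKM in saline and at 6.29, 6.36 and 7.08 FPKM in ISO. The 3 ISO values of Cx3cl1 lay close together (6.58 ± 0.438, SD, n = 3), and its log2 fold change was 0.82 (SE 0.26, limma, adjusted p = 0.699).

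With sample quality weights, which were 0.0772 for saline 3 and 5.50 for ISO 2, 6 members passed, all higher (Ccl8, Ccl9, Ccl12, Cx3cl1, Cxcl9 and Cxcl13), while 768 of all genes were called (6.26%), 521 of them higher (4.25%). With quality weights estimated again after saline 3 was left out, 0 members and 0 genes passed.

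**Figure D4:**
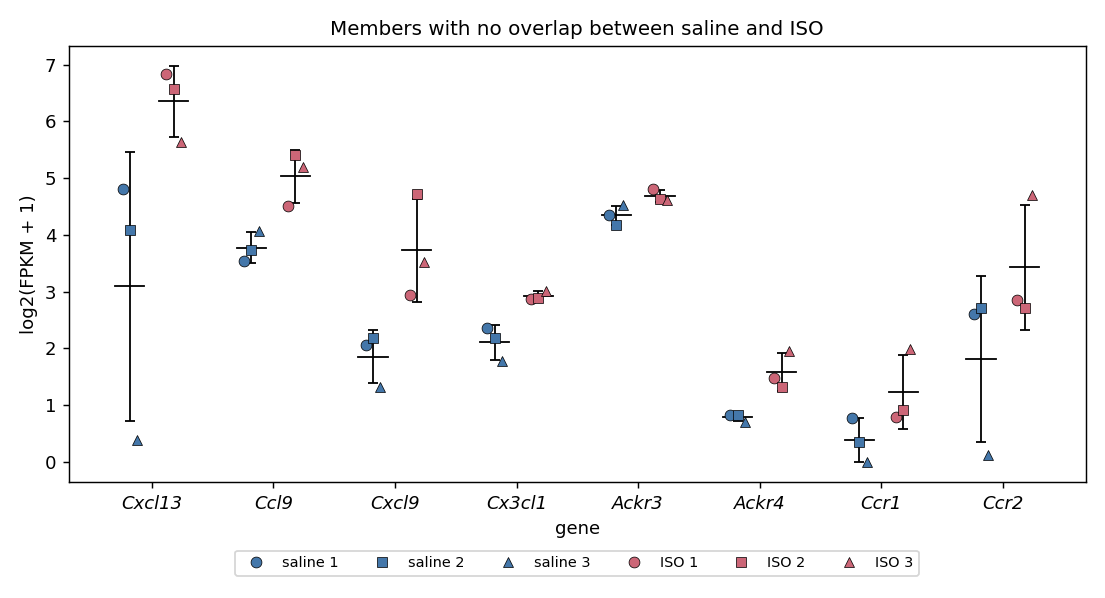
Levels of 8 of the 9 members whose saline and ISO libraries do not overlap, as log2(FPKM + 1). Each point is 1 library, horizontal lines are group means and vertical lines are SDs (n = 3 per group). Saline 3 is the low point of Cxcl13, Ccr1 and Ccr2, while Ccl9, Cx3cl1 and Ackr4 separate with all 3 saline points close together.

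The other CC ligands had smaller differences. Ccl6, a myeloid ligand, was the most abundant ligand in all 3 saline libraries. It was at 40.2, 99.8 and 109 FPKM in saline and at 65.3, 64.7 and 69.3 FPKM in ISO, with the ISO values inside the saline range. Ccl8 and Ccl12 lie near Ccl2 on chromosome 11, with Ccl7 and Ccl11 in between, and also attract monocytes. Ccl8 was at 3.17, 7.14 and 24.0 FPKM in saline and at 14.9, 21.3 and 19.2 FPKM in ISO. Ccl12 was at 6.999, 5.92 and 16.8 FPKM in saline and at 12.6, 14.1 and 25.6 FPKM in ISO. Saline 3 lay above all ISO libraries in Ccl8 and within them in Ccl12, while saline 1 and saline 2 lay below them in both. Without saline 3 the log2 fold changes went from 1.02 to 1.72 for Ccl8 and from 0.83 to 1.25 for Ccl12.

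The eosinophil attractants Ccl11 and Ccl24, which act through Ccr3, were the members with the most negative fold changes. Ccl11 was at 4.35, 6.06 and 13.1 FPKM in saline and at 1.89, 0.542 and 9.79 FPKM in ISO (log2 fold change -1.15, SE 0.73, limma, adjusted p = 0.699). Ccl24 was at 1.19, 3.59 and 9.47 FPKM in saline and at 1.88, 2.69 and 0.390 FPKM in ISO (log2 fold change -0.94, SE 0.63, limma, adjusted p = 0.699). ISO 3 was the highest ISO library for Ccl11 and the lowest for Ccl24, and saline 3 was the highest of all 6 for both. Without saline 3 the value of Ccl24 was -0.37. Their receptor Ccr3 held 0 to 8 reads per library.

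Ccl27a, an epithelial ligand of Ccr10, was at 15.6, 31.9 and 39.1 FPKM in saline and at 16.9, 11.2 and 21.6 FPKM in ISO (log2 fold change -0.71, SE 0.40, limma, adjusted p = 0.699). Its span overlaps Il11ra1 and Ccl27b is a near copy, so both levels are uncertain. Ccl28, a mucosal ligand, was at 4.17 FPKM in saline 3 (61 reads) and at 0 to 0.193 FPKM in the other 5 libraries. Saline 3 was also 1 of the 2 libraries with high airway markers. Ccl25 was at 1.67 to 3.64 FPKM and Ccl27b at 0.347 to 2.60 FPKM, with overlapping groups. Ccl22, a ligand of Ccr4, was at 0.280, 0.525 and 0 FPKM in saline and at 0.374, 1.4998 and 1.67 FPKM in ISO. Ccl17, Ccl19 and Ccl20 held 0 to 11 reads in each library.

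Among the remaining ligands, Cxcl12, which stroma and endothelium make at rest, was at 13.0, 12.1 and 9.76 FPKM in saline and at 10.6, 12.8 and 18.2 FPKM in ISO. Its log2 fold change of 0.21 (SE 0.27, limma, adjusted p = 0.762) was 0.011 without ISO 3. Cxcl14 was at 8.43, 5.98 and 16.5 FPKM in saline and at 6.48, 8.42 and 8.09 FPKM in ISO, with overlapping groups. Cxcl16, a membrane-bound scavenger receptor and ligand of Cxcr6, was at 1.78, 0.830 and 0 FPKM in saline and at 0.818, 2.42 and 6.96 FPKM in ISO. The 0 of saline 3 allows up to 0.218 FPKM (3 reads). Xcl1, a lymphocyte ligand, held 1 to 7 reads per library and Cxcl17 held 0 to 3.

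Among the CC receptors, Ccr2 marks monocytes and the macrophages that come from them. Ccr2 (chromosome 9, 124101918 to 124109140) stood at 5.09, 5.55 and 0.0908 FPKM in saline and at 6.25, 5.57 and 25.003 FPKM in ISO. Saline 2 and ISO 2 were nearly equal, so the separation of the groups was narrow and the fold change rested on saline 3 (1 read) and ISO 3 (557 reads). The log2 fold change of 1.61 (SE 0.82, limma, adjusted p = 0.699) was 0.77 without saline 3. On the log2(FPKM + 1) scale ISO 2 minus ISO 1 was -0.14 for Ccr2, against 4.62 for its ligand Ccl2.

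Ccr1 was at 0.716, 0.280 and 0 FPKM in saline and at 0.718, 0.891 and 2.96 FPKM in ISO, with saline 1 and ISO 1 almost equal. Ccr7, the lymph node homing receptor, was at 3.52 FPKM (39 reads) in ISO 3 and at 0 to 0.411 FPKM elsewhere. Ccr1l1, Ccr3, Ccr4 and Ccr9 held at most 8 reads in any library.

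Among the other receptors, ISO 3 was again the highest library for those of neutrophils and B cells. Cxcr4, the Cxcl12 receptor, was at 4.87, 3.25 and 3.30 FPKM in saline and at 3.22, 1.78 and 12.8 FPKM in ISO, and its log2 fold change of 0.20 turned to -0.47 without ISO 3. Cxcr5, the Cxcl13 receptor of B cells, was at 0.271, 0.546 and 0 FPKM in saline, 0 in ISO 1 and ISO 2 and 3.00 FPKM (44 reads) in ISO 3. Cxcr2, the receptor of the ELR ligands, was at 0.616, 0.101 and 0 FPKM in saline and at 0.694, 0.124 and 2.05 FPKM in ISO. The summed B cell markers were at 80.3 FPKM in ISO 3 against 11.2 to 29.8 FPKM in the other 5 libraries, and the summed neutrophil markers at 142 FPKM against 34.8 to 105 FPKM, with the neutrophil surface gene Ly6g at 0 in all. The part of these markers in the receptor levels was not tested. ISO 2, in which Cxcl2 was at 971 FPKM, had Cxcr2 at 2 reads.

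Cx3cr1, the fractalkine receptor of resident macrophages, was at 2.70, 3.76 and 1.54 FPKM in saline and at 3.47, 3.00 and 4.03 FPKM in ISO, with overlapping groups. Cxcr3, the receptor of Cxcl9 and Cxcl10, was at 1.197, 0.197 and 0 FPKM in saline and at 0.758, 0.965 and 0.664 FPKM in ISO, resting on 0 to 19 reads. Cxcr6 and Xcr1 held 0 to 4 and 0 to 18 reads.

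Of the atypical receptors, Ackr3, a scavenger of Cxcl12, was the most abundant receptor by its mean over the libraries, with 25.4 to 66.8% of the summed receptor FPKM. In ISO 3 it was below Ccr2. It was at 19.3, 17.0 and 21.9 FPKM in saline and at 27.0, 23.7 and 23.6 FPKM in ISO. The groups did not overlap, but the log2 fold change of 0.34 (SE 0.21, limma, adjusted p = 0.699) was small. Ackr4, a scavenger of Ccl19, Ccl21 and Ccl25, was at 0.778, 0.775 and 0.628 FPKM in saline (0.727 ± 0.0855, SD, n = 3) and at 1.797, 1.49 and 2.86 FPKM in ISO (2.05 ± 0.719, SD, n = 3). Its log2 fold change was 0.80 (SE 0.30, limma, adjusted p = 0.699), and its span overlaps Acad11. Ackr1, the Duffy receptor of red cells and venules, was at 2.19, 1.37 and 0.311 FPKM in saline and at 0.819, 2.35 and 3.38 FPKM in ISO. Ackr2, a scavenger of inflammatory CC ligands, was at 1.16 to 3.88 FPKM with overlapping groups.

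Genes through which chemokine receptors act were described by lists chosen for the pathway. Of 18 G protein and effector genes tested, 17 were higher in ISO (median log2 fold change 0.40), where 68.1% of all genes tested were higher. The groups did not overlap for 7 of the 18, all higher in ISO, against 12.8% of all genes tested. Pik3r5, Itgam, Rgs1 and Sdc4 are named after their values were seen. Pik3r5, a regulatory subunit of the phosphoinositide kinase that Gi-coupled receptors activate, was at 1.24, 2.01 and 1.88 FPKM in saline and at 2.82, 14.9 and 15.6 FPKM in ISO. Of 15 adhesion genes 14 were higher (median 0.90), among them Itgam, an integrin of myeloid cells, at 4.44, 4.74 and 5.92 FPKM in saline and at 6.43, 17.5 and 18.8 FPKM in ISO. In both genes ISO 2 and ISO 3 were far above ISO 1, and ISO 1 was above every saline library.

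Of 11 desensitization genes 9 were higher (median 0.34), and of 11 ligand processing and binding genes 9 were higher (median 0.73). Rgs1, which limits Gi signalling, was at 4.04, 0.119 and 0.271 FPKM in saline and at 0.815, 17.2 and 16.3 FPKM in ISO. Sdc4, a heparan sulfate proteoglycan that binds chemokines, was at 20.03, 22.9 and 13.5 FPKM in saline and at 17.2, 70.2 and 85.1 FPKM in ISO. In none of the 5 pathway lists did a gene pass (limma, adjusted over all genes), and the median over all genes tested was 0.20. After median-of-ratios scaling the counts of higher genes were 14 of 18 for the G protein list, 12 of 15 for adhesion, 8 of 11 for desensitization, 7 of 11 for processing and 12 of 13 for the inducers.

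Leaving out 1 library moved the values of the inflammatory block and of Cxcl13 widely. The log2 fold change of Cxcl2 ran from 1.11 without ISO 3 to 6.02 without ISO 1, that of Cxcl10 from 1.53 without ISO 2 to 4.41 without ISO 1, and that of Cxcl1 from 0.67 without ISO 3 to 3.60 without ISO 1. That of Cxcl13 ran from 1.90 without saline 3 to 4.11 without saline 1. That of Cx3cl1 ran from 0.65 to 0.95, that of Ackr3 from 0.26 to 0.43 and that of Ackr4 from 0.61 to 0.93.

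**Figure D5:**
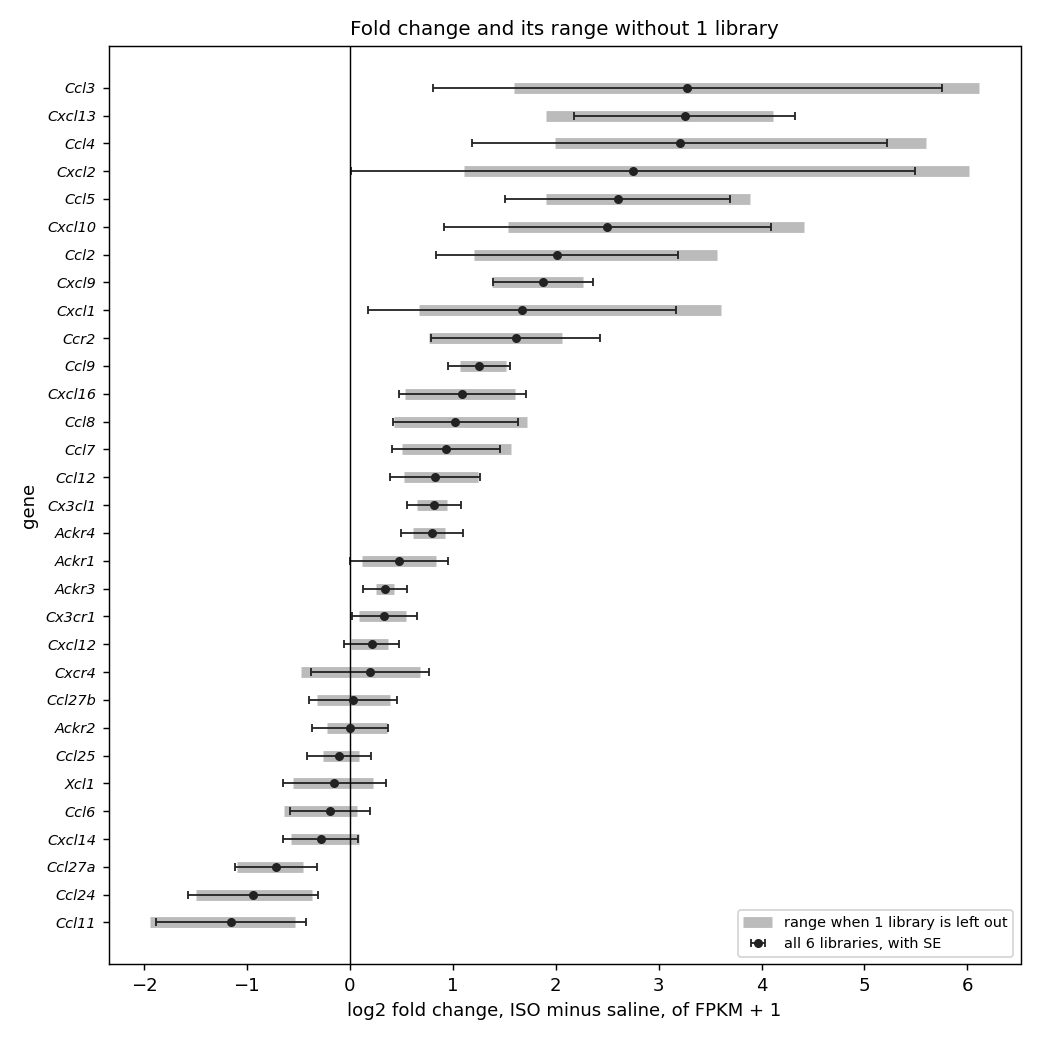
Log2 fold change (ISO minus saline, on the log2(FPKM + 1) scale) of 31 of the 32 members with a mean FPKM of at least 1. Points are fits to all 6 libraries with bars of 1 SE, and grey bands span the values when each library is left out in turn. Bands are wide for Ccl3, Cxcl2, Ccl4, Cxcl10 and Cxcl1 and narrow for Ccl9, Cx3cl1, Ackr3 and Ackr4.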

How the data were processed

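Left ventricle RNA was sequenced in 3 saline and 3 ISO libraries, and samples were grouped by their labels. The authors deposited FPKM per gene symbol, 1 column per library. The submitters' processing notes name CASAVA 1.8, fastp 0.20.0, HISAT2 2.1.0, Cufflinks 2.2.1, HTSeq 0.7.2, DESeq and GRCm38, with no role. The annotation release and strand setting are not given in the sources used here. FPKM depends on the library total, so a few abundant genes lower all others.

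Each gene's values step by the worth of 1 read, so read numbers could be recovered, and came out whole, within 0.0001, for 100% of 16816 genes. The totals were 9862363, 6307039 and 2776152 for saline 1 to 3, and 7378782, 5154283 and 5614336 for ISO 1 to 3. Intervals reflect counting error alone. limma 3.58.1 (R 4.3.3) was run on log2(FPKM + 1) for the 12269 genes whose mean FPKM reached 1 (mean-variance trend, group only), with Benjamini-Hochberg adjustment at 0.05. Fold changes on this scale understate the change of low genes. An exact permutation test of 3 against 3 cannot go below 0.1. Scripts were tested on simulated data. Python 3.11.15, pandas 2.3.3, numpy 2.4.6 and scipy 1.17.1 were used.

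The members and lists were chosen with earlier results of these data known. Values are given for the 12 members with the highest mean, the 8 higher and 8 lower with the smallest p, their receptors and a set of textbook members. Other members given by their single values, such as Ccl28 and Ccr7, were chosen after these were seen. The values of 1 member are not reported here, although counts over the members include it. Alternatives were pseudocounts, filters, scalings, quality weights, a replicate block and each library left out. limma-voom on recovered reads, which called 0 genes, and quality weights with saline 3 left out were chosen after seeing the data.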

Additional observations from a re-analysis of the deposited data

How the results depend on the processing

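The alternatives called 0 genes and 0 members, apart from sample quality weights (768 genes and 6 members) and the fit without ISO 1, so leaving out 1 library gave 0 to 16 genes and 0 to 1 members. The median log2 fold change of the 32 members in the filtered fit was 0.82. With no filter it was 0.38, over a larger set of 51 members that adds 19 with a mean FPKM under 1. Over the 32 members it was 0.36 with quality weights and 0.44 with quality weights and saline 3 left out. It was 0.57 to 0.93 when 1 library was left out. Saline 3 was the shallowest library, and 17 members were at 0 there. The part of depth in these zeros was not tested. With replicate number as a block, 0 genes and 0 members passed and the median was 0.82. Deviations from the group means had correlations of 0.013, -0.15 and -0.026 for same-numbered libraries, against -0.031 to 0.082 for the other pairs. With 3 libraries per group, these values cannot decide whether the numbers pair the libraries.

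Of 512 values (32 members under 16 alternatives), 471 kept sign and side, 7 passed the threshold and 34 had the other sign, while 22 of the 32 members kept their sign throughout. The cause of the changes of sign was not tested. Under median-of-ratios scaling Ackr2 was at -0.16 and Ccl27b at -0.046. Under quantile normalization Ackr2 was at -0.24, Ccl27b at -0.29 and Cxcr4 at -0.060. With limma-voom Ccl27b was at -0.12 and Xcl1 at 0.0014. With quality weights Ccl24 was at 0.29, Ccl25 at 0.32, Ccl6 at 0.34, Cxcl12 at -0.019, Cxcl14 at 0.015 and Cxcr4 at -0.69. With weights estimated again after saline 3 was left out, Ccl24 was at 0.063, Ccl25 at 0.26, Ccl27b at -0.16 and Ccl6 at 0.037. In that fit Cx3cr1 was at -0.016, Cxcl12 at -0.0023, Cxcl14 at 0.14 and Cxcr4 at -0.58. With 1 library left out, Ackr2 ran from -0.22 to 0.37, Ccl25 from -0.26 to 0.093, Ccl27b from -0.32 to 0.39, Ccl6 from -0.64 to 0.066, Cxcl14 from -0.58 to 0.088, Cxcr4 from -0.47 to 0.68 and Xcl1 from -0.55 to 0.22.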
